A study of Mus musculus with 12 samples.

Results

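The receptors for the growth factors that drive myeloid blood cells were followed through the bone marrow of mice with combined leukemia alleles. The group held 8 genes chosen by name, namely Flt3, Csf1r, Csf2ra, Csf2rb, Csf2rb2, Csf3r, Il3ra and Il5ra, and all 8 were among the 12199 genes of the deposited count table. RNA-seq had been run on whole bone marrow cells of C57BL/6 mice of 4 genotypes, with the question of how loss of an epigenetic regulator combines with an activated Flt3 allele. WT mice were wild type (n = 3 libraries). According to the methods they came from a core facility, and the mutants from crosses. Source and genotype therefore cannot be told apart in comparisons with WT. DF mice were Dnmt3a+/- Flt3ITD/WT and carried MxCre with 1 floxed Dnmt3a allele (n = 3), TF mice were Tet2+/- Flt3ITD/WT (n = 3), and TFD mice carried all of these alleles (n = 2). A further library labelled TFD replicate 3 was not analysed here. According to the methods, WT animals and mutants alike received poly(I:C), which switches on the Mx promoter and so deletes floxed Dnmt3a in the blood system and in other interferon-responsive cells, at 8 to 10 weeks of age. Hematopoietic analysis followed 8 to 9 weeks later, and the RNA came from marrow used in that analysis. WT and TF mice carry no Cre according to the labels, Flt3ITD was a germline allele present in every mutant, and the labels do not say in words that each library came from 1 separate mouse, so the p-values measure the spread between these libraries. With no library from Flt3ITD/WT alone, the part of the Flt3 allele and the part of Tet2 or Dnmt3a loss in any difference from WT cannot be told apart.

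Growth factor receptors of this kind set which blood cells survive and divide. Flt3 and Csf1r are receptor tyrosine kinases with 1 protein chain. Flt3 binds Flt3 ligand on early progenitors and dendritic cell precursors, and Csf1r binds M-CSF and IL-34 on monocytes and macrophages. The others have no kinase of their own and signal through JAK kinases and STAT5. Csf2ra, Il3ra and Il5ra encode the chains that recognise GM-CSF, IL-3 and IL-5, and each pairs with the common beta chain encoded by Csf2rb. Mice also have Csf2rb2, a beta chain that works with the IL-3 receptor only. Csf3r encodes the G-CSF receptor of the neutrophil lineage. An internal tandem duplication (ITD) repeats part of the juxtamembrane stretch of Flt3 and lets the kinase signal without ligand.

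The region of Flt3 in which such duplications typically lie is exon 14, which stands at chr5:147354799-147354931 on the minus strand of mm10, is wholly coding and is 133 bases long. It is shown because its reads come from the normal and the duplicated allele together, so the gene count does not separate them. The reference exon reads as follows in the GENCODE vM21 transcripts.
Flt3 exon 14: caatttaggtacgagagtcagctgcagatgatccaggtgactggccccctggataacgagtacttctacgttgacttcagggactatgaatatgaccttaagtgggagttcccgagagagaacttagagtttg

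The 2 beta chain genes are neighbours on chromosome 15, Csf2rb at chr15:78325990-78351001 on the plus strand and Csf2rb2 at chr15:78282508-78305721 on the minus strand, and they are near copies. Their coding sequences (2688 and 2634 bases) were identical at 95.2% of 2628 aligned bases, with a longest shared run of 242 bases. Of all 100-base windows of the Csf2rb transcript, 6.96% occurred letter for letter in Csf2rb2, and of 50-base windows 18.4%. The counts came from uniquely mapped reads, so reads from such windows drop out of both genes or could be split between them, and values of this pair are uncertain to that extent. The 120-base coding stretch in which the pair differs most is shown from GENCODE vM21, with the 22 differing bases in capitals. It spans coding bases 319 to 438 of Csf2rb and 322 to 441 of Csf2rb2.
Csf2rb: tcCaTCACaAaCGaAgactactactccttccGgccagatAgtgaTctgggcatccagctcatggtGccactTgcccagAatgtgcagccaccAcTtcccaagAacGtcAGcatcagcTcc
Csf2rb2: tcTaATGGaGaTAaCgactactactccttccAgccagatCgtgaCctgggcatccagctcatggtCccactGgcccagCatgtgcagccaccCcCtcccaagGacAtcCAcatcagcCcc

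Promoters were searched because several of the genes moved together between genotypes. Of the 8 genes, 6 were searched in the RefSeq promoter table (GRCm38.p6, the assembly of mm10), and Csf1r and Csf2rb were not. The 250 bases before each start were read for letters that resemble the sites of myeloid factors. Both strands were searched, and the shares below are over the 32851 promoters of the table. The PU.1-type letters were GAGGAA, present in 23.3% of promoters. The C/EBP-type letters were TTNCNNAA, present in 36.8%. For RUNX factors the search used TGTGGT, found in 14% of promoters. For the erythroid and eosinophil factor family of Gata1 the search used AGATAA, found in 9.99% of promoters. STAT factors were represented by TTCNNNGAA, which 7.02% of promoters held. Csf2ra held 2 adjacent GAGGAA runs at 14 to 9 and 8 to 3 bases before the start and a C/EBP-type match at 31 to 24. Il3ra held a C/EBP-type match at 134 to 127 bases, Csf3r a GAGGAA run at 86 to 81, and Il5ra the letters of the Gata1 family at 74 to 69. The Csf2rb2 promoter held GAGGAA on the reverse strand at 167 to 162 bases and a STAT-type match at 15 to 7. None of the 5 sets of letters occurred in the Flt3 window, which held 13 CpG and 59.2% GC against medians of 6 CpG and 52.4% over the table. A match is a description of letters, not evidence of binding. Of the 6 promoters, 5 are printed below with their matches in capitals, the Csf2rb2 promoter being left out, and each line is written along its gene's strand.
Flt3 promoter, chr5:147400490-147400739, minus strand: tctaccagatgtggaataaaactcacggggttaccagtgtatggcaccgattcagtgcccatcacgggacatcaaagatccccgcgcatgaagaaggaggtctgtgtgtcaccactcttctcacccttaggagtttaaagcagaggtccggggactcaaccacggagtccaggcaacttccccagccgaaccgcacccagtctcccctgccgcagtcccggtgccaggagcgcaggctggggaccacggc
Csf2ra promoter, chr19:61228419-61228668, minus strand: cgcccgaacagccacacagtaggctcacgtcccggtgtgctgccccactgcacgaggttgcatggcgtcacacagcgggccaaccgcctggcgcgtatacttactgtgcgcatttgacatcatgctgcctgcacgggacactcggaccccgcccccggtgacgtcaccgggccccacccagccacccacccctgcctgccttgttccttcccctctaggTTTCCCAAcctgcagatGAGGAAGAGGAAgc
Il3ra promoter, chr14:14346245-14346494, plus strand: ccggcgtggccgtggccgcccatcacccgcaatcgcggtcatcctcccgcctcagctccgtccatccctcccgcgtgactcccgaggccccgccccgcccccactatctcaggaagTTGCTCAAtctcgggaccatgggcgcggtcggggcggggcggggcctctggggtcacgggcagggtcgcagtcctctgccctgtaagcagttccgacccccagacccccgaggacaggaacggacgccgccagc
Csf3r promoter, chr4:126024409-126024658, plus strand: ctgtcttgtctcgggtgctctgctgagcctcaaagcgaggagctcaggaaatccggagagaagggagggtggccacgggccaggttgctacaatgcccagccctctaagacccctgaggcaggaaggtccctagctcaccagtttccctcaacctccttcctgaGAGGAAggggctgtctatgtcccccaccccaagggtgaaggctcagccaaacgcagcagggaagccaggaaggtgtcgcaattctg
Il5ra promoter, chr6:106749038-106749287, minus strand: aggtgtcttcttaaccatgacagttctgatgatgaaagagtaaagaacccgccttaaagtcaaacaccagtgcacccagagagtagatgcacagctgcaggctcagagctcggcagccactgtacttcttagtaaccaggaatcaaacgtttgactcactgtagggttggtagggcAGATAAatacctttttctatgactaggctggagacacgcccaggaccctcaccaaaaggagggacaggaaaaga

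Library totals ran from 8274153 to 15900904 assigned reads. In the fit, Tet2 lay between 7.21 and 7.40 log2 CPM (library-scaled counts on the log2 scale) in WT and between 7.09 and 7.68 in TF, and Dnmt3a between 4.95 and 5.85 in WT and between 5.25 and 5.54 in DF. These counts over whole genes do not check the labels, since reads outside a deleted part also count. Reads of Xist, the RNA of the inactive X chromosome in female cells, numbered 33978, 30976 and 42152 in 1 library each of WT (replicate 3), TF (replicate 3) and TFD (replicate 2) and at most 538 elsewhere, so each of these genotypes mixed sexes and DF did not. The TFD pair differed from each other most (chi-square per degree of freedom 64.5 against 10.2 to 31.6 in the other pairs of a genotype). The tissue label fitted the leading markers of marrow, with summed neutrophil markers between 23800 and 84500 CPM. B-cell markers fell in every mutant genotype, all 10 of 10 tested in each, from 564 to 692 CPM in WT to between 16.6 and 90.2. In bulk marrow, fewer cells of a type and less RNA per cell cannot be told apart.

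Csf1r, Il3ra, Csf2ra and Flt3 were higher than WT in all 3 mutant genotypes. Il5ra was lower in all 3. Csf2rb rose in DF, Csf3r fell in TF, and Csf2rb2 passed the test nowhere. In DF, 5 of the 8 receptor genes rose and 1 fell, beside 37.6% of all 12175 tested genes called in either direction (21.0% higher, 16.6% lower). In TF, 4 rose and 2 fell, beside 34.6% of all genes (19.0% higher, 15.6% lower). In TFD, 4 rose and 1 fell, beside 26.3% of all genes (14.7% higher, 11.6% lower). The median log2 fold change of the 8 genes was 0.72 (DF), 0.38 (TF) and 0.49 (TFD), against 0.05, 0.02 and 0.01 over all genes. A call is an adjusted p under 0.05 in edgeR's quasi-likelihood test with Benjamini-Hochberg adjustment over all tested genes. The 3 comparisons share the WT libraries, so they are not independent of each other. Groups did not overlap for 6 of the 8 genes in each comparison with WT, beside 51.3% of all genes in DF, 49.0% in TF, while TFD gave 49.5%.

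**Figure D1:**
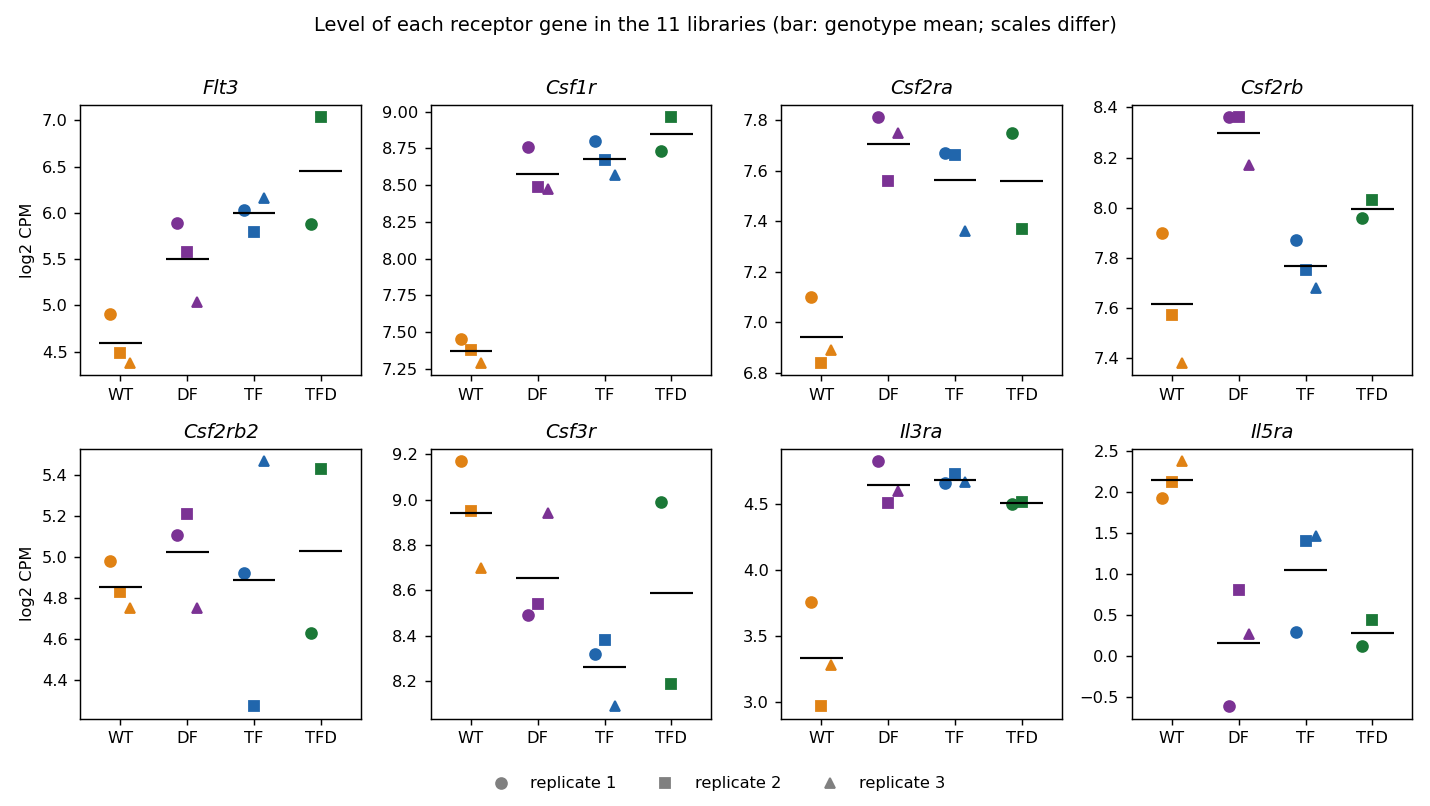
Level of each receptor gene in log2 CPM (vertical axis) in the 11 libraries, by genotype (horizontal axis). Symbols are replicates, bars are genotype means, and the vertical scale differs between panels. Csf1r lies between 7.29 and 7.45 in WT and between 8.47 and 8.96 in the mutants, and Il5ra lies above every mutant library in WT.

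Flt3, at chr5:147330742-147400489, was 1 of the 2 tyrosine kinase receptors and had a wide spread among mutants. Its log2 CPM was 4.91, 4.49 and 4.38 in WT replicates 1 to 3 and 5.89, 5.58 and 5.04 in DF. In TF it was 6.03, 5.79 and 6.16, and in TFD replicates 1 and 2 it was 5.88 and 7.03. Every mutant library lay above every WT library, TFD replicate 2 stood highest and DF replicate 3 came nearest to WT. As raw reads these were 182 to 366 per library in WT and 1463 in TFD replicate 2. Flt3 was 1.91-fold higher in DF (log2 0.93, SE 0.28, edgeR adjusted p = 0.0185), 2.61-fold higher in TF (log2 1.38, SE 0.28, edgeR adjusted p = 0.0023) and 3.85-fold higher in TFD (log2 1.94, SE 0.30, edgeR adjusted p = 0.000552). The DF call was lost without DF replicate 1 (log2 0.71, adjusted p = 0.0936), without WT replicate 2 (adjusted p = 0.0632) and without WT replicate 3 (adjusted p = 0.0836). The TFD value was 1.27 on the log2 scale without TFD replicate 2 and 2.41 without TFD replicate 1, and the call held in each case.

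Summed markers of conventional dendritic cells, which depend on Flt3 signalling in normal marrow, moved with part of this order. Over 6 markers (Zbtb46, Xcr1, Clec9a, Cd209a, Itgax and H2-Ab1) they were 186, 144 and 138 CPM in WT and 288, 187 and 79.8 in DF. In TF they were 632, 350 and 1000 CPM, and in TFD 360 and 582. H2-Ab1, a class II gene that B cells also use, made up 62.2% to 81.4% of each sum. Over the other 5 markers the sums were at most 54.7 CPM in WT, 30.2 to 67.5 in DF, 127 to 342 in TF, while TFD gave 66.9 and 162. The lowest sum, with or without H2-Ab1, was in DF replicate 3, the mutant library lowest in Flt3. TF replicate 3, with the highest marker sum, was only second to TFD replicate 2 in Flt3. Of the 6 markers, 5 rose in TF, 4 in TFD and 0 in DF, where 1 fell. Clec9a, a receptor of cross-presenting dendritic cells, rose by 2.88 on the log2 scale in TF (SE 0.40, edgeR adjusted p = 0.000193). Zbtb46, of the same list, lay at 3.24 to 3.51 log2 CPM in WT and at 0.27 to 1.14 in DF. In TF Zbtb46 lay at 2.68 to 4.13, and in TFD at 1.68 and 2.84. Summed plasmacytoid dendritic cell markers, of 6 genes, ran from 156 to 182 CPM in WT, from 67 to 74.8 in DF, from 128 to 340 in TF, while TFD gave 82.0 to 131. Siglech, their defining marker, held 1 to 17 reads per library in DF and 341 to 472 in WT, and it fell by 6.29 on the log2 scale in DF (SE 0.94, edgeR adjusted p = 0.000272) while Flt3 rose. The part of dendritic cells in the Flt3 level was not tested.

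Csf1r, at chr18:61105572-61131139, was higher in every mutant library than in any WT library. Its log2 CPM was 7.45, 7.38 and 7.29 in WT and 8.76, 8.49 and 8.47 in DF. In TF it was 8.80, 8.67 and 8.57, and in TFD 8.73 and 8.96. No mutant library came within 1 log2 unit of WT. Csf1r was 2.31-fold higher in DF (log2 1.21, SE 0.12, edgeR adjusted p = 1.9e-05), 2.49-fold higher in TF (log2 1.31, SE 0.12, edgeR adjusted p = 1.06e-05) and 2.78-fold higher in TFD (log2 1.48, SE 0.13, edgeR adjusted p = 1.21e-05). Over 19 alternatives the log2 values ran from 1.09 to 1.25, from 1.25 to 1.37 and from 1.31 to 1.59, and no call was lost. Monocyte markers mostly rose with it. Their sum over 8 genes was 2450 to 2850 CPM in WT, 6440 to 6900 in DF, 5190 to 6630 in TF, while TFD gave 5380 to 5770, with 6, 6 and 5 of the 8 higher and 0, 2 and 1 lower. Macrophage markers had more calls in the lower direction in DF and TFD. Their sum over 8 genes was 278 to 401 CPM in WT, 278 to 307 in DF, 371 to 590 in TF, while TFD gave 376 to 553, with 1, 2 and 2 of the 8 higher and 6, 1 and 3 lower and medians of -1.72, -0.28 and -0.76. C1qa, a complement gene of tissue macrophages, fell by 2.34 on the log2 scale in DF and was at -0.35 in TF and -1.29 in TFD with no call (-1.06 in TF with a call, adjusted p = 0.00874, without TF replicate 3; the TFD value was called in 9 alternatives), while Adgre1, which encodes F4/80, rose by 0.93, 1.11 and 0.99. Ccr2, the chemokine receptor that releases monocytes from marrow, rose by 2.47, 2.61 and 2.35 on the log2 scale in DF, TF and TFD. Cx3cr1, a chemokine receptor of monocytes, rose by 2.01, 2.50 and 2.29. Fcgr4, of the same monocyte list, was called lower in TF (-0.87) and TFD (-1.05) and was at -0.45 in DF with no call. The part of monocyte and macrophage numbers in the Csf1r level was not tested.

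**Figure D2:**
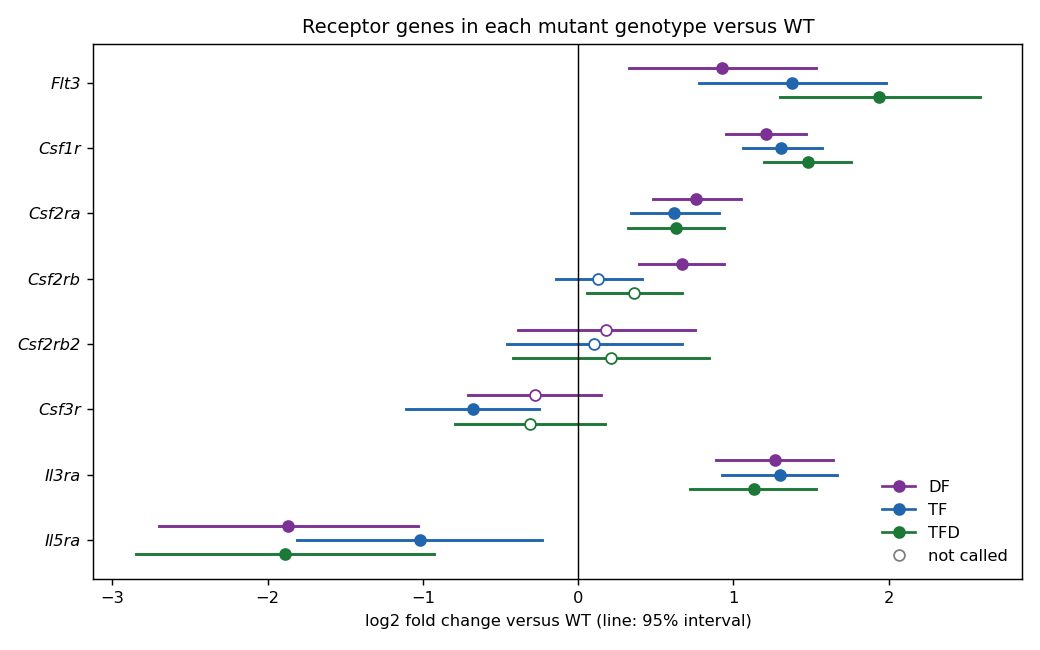
Log2 fold change of each receptor gene against WT (horizontal axis) in DF, TF and TFD, with 95% intervals as lines. Filled points passed the test and open points did not. Csf1r and Il3ra show gains of 1.13 to 1.48 in each genotype and Il5ra losses of 1.02 to 1.89, while the Csf2rb2 intervals all span 0.

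Among the ligand-binding alpha chains, Il3ra and Csf2ra rose and Il5ra fell. Il3ra, the IL-3 receptor alpha chain at chr14:14346495-14355490, had 3.76, 2.97 and 3.28 log2 CPM in WT and 4.83, 4.51 and 4.60 in DF. In TF it had 4.66, 4.73 and 4.67, and in TFD 4.50 and 4.52. The 8 mutant libraries lay in a narrow band above all WT libraries. Il3ra was 2.41-fold higher in DF (log2 1.27, SE 0.17, edgeR adjusted p = 0.000145), 2.46-fold in TF (log2 1.30, SE 0.17, edgeR adjusted p = 0.000152) and 2.18-fold in TFD (log2 1.13, SE 0.19, edgeR adjusted p = 0.00095). All 3 calls held over the 19 alternatives. IL-3 receptor alpha is also a marker of plasmacytoid dendritic cells in humans and of basophils. Of 6 plasmacytoid markers 5 fell in DF, 1 rose and 1 fell in TF, and 3 fell in TFD. The 5 basophil and mast cell markers summed to 232 to 281 CPM in WT and 193 to 313 in DF. In TF they summed to 126 to 202 CPM, and in TFD to 145 to 304. Of these 5 markers, 3 fell in TF and 0 were called in DF or TFD. Most of the monocyte markers given beside Csf1r (6, 6 and 5 of 8) rose in the genotypes in which Il3ra rose. The part of any of these cell types in the Il3ra level was not tested.

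Csf2ra, the GM-CSF receptor alpha chain at chr19:61224402-61228418, had 7.10, 6.84 and 6.89 log2 CPM in WT and 7.81, 7.56 and 7.75 in DF. In TF it had 7.67, 7.66 and 7.36, and in TFD 7.75 and 7.37. Mutant and WT libraries did not overlap, though TF replicate 3 and TFD replicate 2 lay lowest of the mutants. Csf2ra was 1.70-fold higher in DF (log2 0.76, SE 0.13, edgeR adjusted p = 0.000729), 1.54-fold in TF (log2 0.62, SE 0.13, edgeR adjusted p = 0.00311) and 1.55-fold in TFD (log2 0.63, SE 0.14, edgeR adjusted p = 0.00666). Without TFD replicate 1 the TFD call was lost (log2 0.42, adjusted p = 0.0881).

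Il5ra, the alpha chain of the IL-5 receptor that eosinophils and some B cells use, was the rarest of the 8. At chr6:106710379-106749037, it held 46, 35 and 58 raw reads in WT and 8, 27 and 12 in DF. In TF it held 15, 32 and 30, and in TFD 17 and 15. On the log2 CPM scale WT lay between 1.93 and 2.38 and the mutants between -0.61 and 1.46, so the groups did not overlap, with DF replicate 1 lowest. It fell by 1.87 on the log2 scale in DF (SE 0.39, edgeR adjusted p = 0.00248), by 1.02 in TF (SE 0.37, edgeR adjusted p = 0.0459) and by 1.89 in TFD (SE 0.44, edgeR adjusted p = 0.00747). The TF call was lost in 7 of 19 alternatives, with adjusted p up to 0.165 without TF replicate 1, and also without WT replicate 1, 2 or 3, DF replicate 3 or TF replicate 2. Without TFD replicate 1 the TFD call was lost (adjusted p = 0.0623). Eosinophil markers did not move as 1 block beside it. Their sum over 8 genes was 296 to 388 CPM in WT, 287 to 397 in DF, 284 to 679 in TF, while TFD gave 224 to 344. Of these 8 genes, 2 rose and 1 fell in DF and in TF, and 0 rose and 1 fell in TFD. Ear2, an eosinophil ribonuclease of a family of similar genes, rose by 1.03 in DF and by 1.22 in TF and was at 0.62 in TFD with no call. Its DF call was lost with library totals and without any 1 of the WT or DF libraries, its TF call without WT replicate 2 or 3 or TF replicate 2, and its TFD value was -0.41 without TFD replicate 1 and 1.19 with a call (adjusted p = 0.0293) without TFD replicate 2. Ccr3, the eotaxin receptor of mature eosinophils, fell, at -3.29, -2.09 and -2.78 on the log2 scale in DF, TF and TFD respectively. Prg2, an eosinophil granule protein, lay at 7.66 to 7.95 log2 CPM in WT and 7.22 to 8.88 in the mutants. The part of eosinophils and of the lost B-cell RNA in the Il5ra level was not tested.

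The shared beta chain rose clearly in DF. Csf2rb had 7.90, 7.57 and 7.38 log2 CPM in WT and 8.36, 8.36 and 8.17 in DF. In TF it had 7.87, 7.75 and 7.68, and in TFD 7.96 and 8.03. DF lay above all other libraries, TF lay within the range of WT, and TFD lay between DF and WT with no overlap with either. Csf2rb was 1.59-fold higher in DF (log2 0.67, SE 0.13, edgeR adjusted p = 0.00145). Against WT it did not pass the test in TF (log2 0.13, 95% interval -0.14 to 0.41, edgeR adjusted p = 0.431) or in TFD (log2 0.36, 95% interval 0.06 to 0.67, edgeR adjusted p = 0.0763). Without WT replicate 1 the TFD difference was called (log2 0.52, adjusted p = 0.0123), as it was with a term for the Xist-high libraries (0.40, adjusted p = 0.0429).

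Csf2rb2, the beta chain of the IL-3 receptor alone, was spread within genotypes. It had 4.98, 4.83 and 4.75 log2 CPM in WT, 5.11, 5.21 and 4.75 in DF, 4.92, 4.27 and 5.47 in TF, while TFD gave 4.63 and 5.43. The highest values were in TF replicate 3 and TFD replicate 2, which are also the mutant libraries with many Xist reads, and TF replicate 2 was lowest. The log2 difference from WT was 0.18 in DF (95% interval -0.39 to 0.75), 0.10 in TF (-0.46 to 0.67) and 0.21 in TFD (-0.42 to 0.84), with edgeR adjusted p of 0.612, 0.784 and 0.631. The TF and TFD values changed sign, to -0.23 in each case, without TF replicate 3 and without TFD replicate 2 respectively. These intervals allow changes of more than 0.5 in log2, so they do not show that Csf2rb2 was the same in mutants and WT.

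Csf3r, the G-CSF receptor at chr4:126024659-126044975, was the most abundant of the 8 per length in WT and did not rise. Its log2 CPM was 9.17, 8.95 and 8.70 in WT and 8.49, 8.54 and 8.94 in DF. In TF it was 8.32, 8.38 and 8.09, and in TFD 8.99 and 8.19. TF lay below every WT library, whereas DF replicate 3 and TFD replicate 1 lay within the range of WT. Csf3r fell by 0.68 on the log2 scale in TF (SE 0.20, edgeR adjusted p = 0.0184), a call lost without WT replicate 1 (adjusted p = 0.0657). The difference was -0.28 in DF (95% interval -0.71 to 0.15, edgeR adjusted p = 0.28) and -0.31 in TFD (-0.79 to 0.17, edgeR adjusted p = 0.337). Leaving out TFD replicate 1 gave -0.76 with a call (adjusted p = 0.0342), and leaving out TFD replicate 2 gave 0.04. In DF the drop passed the test over the libraries with few Xist reads (-0.43, adjusted p = 0.0352) and with a term for the Xist-high libraries (-0.42, adjusted p = 0.0448).

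Neutrophil markers varied beside Csf3r. The 11 tested genes summed to 52700 to 66400 CPM in WT, 59900 to 84500 in DF, 37600 to 48300 in TF, while TFD replicates 1 and 2 gave 47600 and 23800. TFD replicate 2 was lowest in neutrophil markers and among the lowest in Csf3r, and DF replicate 3 was highest in both among the DF libraries. Of the 11 genes, 4 fell in TF, 2 in TFD and 0 in DF, and none rose by edgeR. Cxcr2, the chemokine receptor of mature neutrophils, fell by 1.18 on the log2 scale in TF (SE 0.21, edgeR adjusted p = 0.0013). Ly6g, the defining neutrophil marker, was not among the tested genes. Early granulocyte markers (Mpo, Elane, Prtn3, Ctsg, Ms4a3 and Prss57) rose in 6 of 6 in DF, 1 of 6 in TF and 2 of 6 in TFD. The part of neutrophil number in the Csf3r level was not tested.

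Per length, the order of the receptors changed between WT and mutants. In RPKM (CPM divided by the deposited gene length in kilobases), WT levels were 123 ± 20.1 for Csf3r, 66.7 ± 6.59 for Csf2ra, 42.8 ± 2.41 for Csf1r and 41.7 ± 7.75 for Csf2rb (mean ± SD, n = 3). Below these stood Il3ra at 7.42 ± 2.1, Flt3 at 6.69 ± 1.35, Csf2rb2 at 6.12 ± 0.502 and Il5ra at 1.25 ± 0.201 RPKM. Neighbours Csf1r and Csf2rb overlapped in WT, as did Il3ra, Flt3 and Csf2rb2. In TFD (n = 2) Csf1r came first in mean RPKM, at 119 ± 13.8, followed by Csf2ra at 103 ± 19.1 and Csf3r at 98.9 ± 37.9, which overlapped. In TF Csf1r was at 106 ± 8.39, Csf2ra at 103 ± 12.1 and Csf3r at 76.2 ± 7.87, and only Csf3r lay clear of the other two. In DF Csf2ra was at 113 ± 9.92, Csf3r at 101 ± 17.9 and Csf1r at 98.9 ± 11.5, with overlap throughout. Flt3 moved up in the order of all genes, with 37.0% of genes at a lower mean RPKM in WT, 55.1% in DF, 65.2% in TF and 76.3% at the TFD mean of 25.9 RPKM, which averages 16.1 in replicate 1 and 35.7 in replicate 2.

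**Figure D3:**
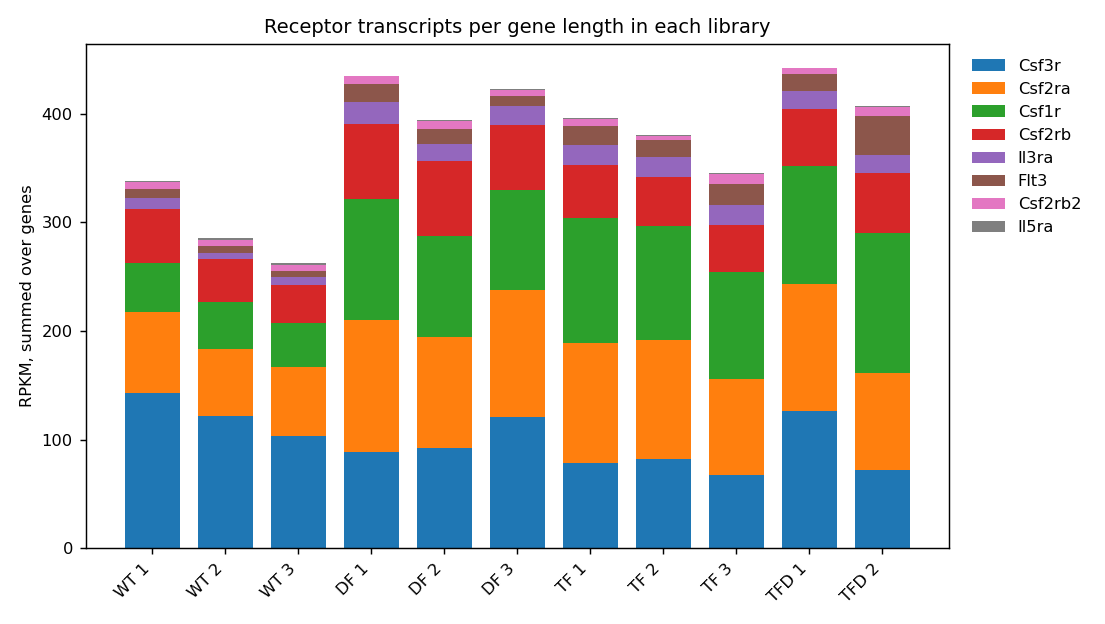
RPKM of the 8 receptor genes stacked for each of the 11 libraries (horizontal axis), summed on the vertical axis. Csf3r makes up 39.2% to 42.8% of the stack in WT and 17.7% to 28.7% in the mutant libraries.

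Shares of the summed receptor RPKM show the same values in another form. Csf3r made up a mean of 41.4% in WT and 24.2%, 20.4% and 23.1% in DF, TF and TFD, and Csf1r 14.6% in WT and 23.7%, 28.4% and 28.2%. Flt3 made up 2.25% in WT, 3.06% in DF and 4.71% in TF. TFD gave 6.21%, from 3.64% in replicate 1 and 8.77% in replicate 2. Of the TFD pair, replicate 1 lay below the TF range, as did every WT and DF library. The ratio of Csf3r to Csf1r per length was 2.85 ± 0.309 in WT (SD, n = 3), 1.04 ± 0.268 in DF, 0.718 ± 0.0555 in TF, while TFD gave 0.855 ± 0.417 (n = 2). No mutant library, at 1.32 or less, reached the lowest WT library at 2.54. Flt3 to Csf1r overlapped between WT and each mutant genotype, at 0.156 ± 0.023 in WT and 0.128 ± 0.0258, 0.166 ± 0.0288 and 0.212 ± 0.0917 in DF, TF and TFD, with TFD replicate 2 highest at 0.277. The highest DF library, at 0.144, lay below the lower TFD library, at 0.147.

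Ratios of alpha to beta chains also shifted. Il3ra to Csf2rb per length was 0.177 ± 0.0318 in WT, 0.273 ± 0.0329 in DF, 0.405 ± 0.0315 in TF, while TFD gave 0.306 ± 0.00567, with the ranges of the 4 genotypes apart from each other. Csf2ra to Csf2rb was 1.62 ± 0.184 in WT and 1.72 ± 0.23, 2.24 ± 0.176 and 1.93 ± 0.414 in DF, TF and TFD, and only TF lay clear of WT. Il5ra to Csf2rb fell from 0.0312 ± 0.0103 in WT to 0.00507 ± 0.00228 in DF, 0.0137 ± 0.00594 in TF, while TFD gave 0.00629 ± 0.000831. Csf2rb2 to Csf2rb was 0.149 ± 0.0148 in WT and 0.104 ± 0.00947 in DF, whose ranges did not overlap, and spread from 0.0902 to 0.218 in TF, while TFD gave 0.0994 to 0.166. These ratios are given as descriptions with no test, and they are ratios of RNA, not of chains at the cell surface.

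Between mutants few receptor differences passed the test. DF and TF differed in 1 of the 8 genes, beside 5.94% of all genes (1.67% higher in DF, 4.27% lower). Csf2rb was 1.45-fold higher in DF than in TF (log2 0.53, SE 0.13, edgeR adjusted p = 0.0292), with 3 of 3 DF libraries above 3 of 3 TF libraries. That call was lost in 8 of 19 alternatives, among them library totals in place of TMM factors (log2 0.45, adjusted p = 0.0679) and leaving out any 1 of DF replicates 1 to 3 or TF replicate 2 or 3 (adjusted p up to 0.122). DF and TFD differed in 0 of the 8 genes, beside 0% of all genes by edgeR (1727 genes at an unadjusted p under 0.05), with 1 receptor gene at an unadjusted p under 0.05 and 1 called by DESeq2. In each case the gene was Flt3, at -1.01 in DF relative to TFD on the log2 scale (95% interval -1.64 to -0.38, edgeR adjusted p = 0.166, DESeq2 adjusted p = 0.0279). That value was -1.48 without TFD replicate 1 (adjusted p = 0.0172) and -0.36 without TFD replicate 2. TF and TFD differed in 0 of the 8, beside 0.0164% of all genes (0.00821% higher in TF, 0.00821% lower), with 0 at an unadjusted p under 0.05 and 0 called by DESeq2. Flt3 was -0.56 in TF relative to TFD (95% interval -1.19 to 0.07), an interval that reaches a difference of over 1 log2 unit. Il5ra, at few reads, was at -0.85 in DF relative to TF (95% interval -1.72 to 0.02) and at 0.87 in TF relative to TFD (-0.11 to 1.85), intervals that each reach a difference of over 1 log2 unit. Groups did not overlap for 2 genes between DF and TF, 1 between DF and TFD and 2 between TF and TFD, beside 25.9%, 29.1% and 22.3% of all genes.

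The ligands were mostly outside the table. Of 7 ligand genes, Flt3l and Csf1 were tested, and Il34, Csf2, Csf3, Il3 and Il5 had no entry to test. Flt3l, the Flt3 ligand, lay at 2.65 to 2.94 log2 CPM in WT and at 2.60 to 3.19 in the mutants, with no call. Csf1, which encodes M-CSF, was at -0.70 in DF, -0.71 in TF, while TFD gave -0.47 on the log2 scale (edgeR adjusted p = 0.0659, 0.0678 and 0.292). The DF value passed the threshold in 9 alternatives and the TF value in 8, DESeq2 among them (adjusted p = 0.0295 and 0.0349). Without TFD replicate 1 the TFD value was -1.14 (adjusted p = 0.0389).

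Around the receptors, 67 of 73 listed genes of the pathway were tested. In DF 23 rose and 14 fell, in TF 19 rose and 15 fell, and in TFD 18 rose and 13 fell, against 37.6%, 34.6% and 26.3% of all genes called in either direction in these comparisons. The TFD count of 31 calls was 20 without WT replicate 2. Of 14 tested receptors for other factors, 4 rose and 7 fell in DF, and 4 rose and 4 fell in TF and in TFD. The median log2 fold change of that list was -0.56, -0.12 and -0.15. Il6st, the gp130 chain shared by IL-6 family receptors, rose by 1.75, 2.03 and 2.05 in DF, TF and TFD, and its partner Il6ra by 0.73, 0.81 and 1.06. Pdgfrb, a tyrosine kinase receptor of the same class as Flt3 and Csf1r, rose by 1.54, 1.82 and 1.87. Among those called lower in all 3 genotypes, the largest falls were in Il2ra, Il7r and Epor. Il2ra, the IL-2 receptor alpha chain of lymphocytes, was at -4.94, -3.25 and -3.34. Il7r, needed by developing lymphocytes, was at -4.86, -2.64 and -3.49, and Epor, the erythropoietin receptor, at -4.32, -1.44 and -2.23. The TF call of Epor was lost without WT replicate 3 or TF replicate 1 or 2. Kit, the stem cell factor receptor of the same class as Flt3, was not called, at 6.23 to 6.32 log2 CPM in WT and 5.98 to 6.68 in the mutants, while Cd34, a progenitor marker, rose by 1.96, 1.86 and 1.79. Of the 7 tested stem and progenitor markers, to which Kit and Cd34 belong, 2 rose and 2 fell in DF, 2 rose and 0 fell in TF, and 2 rose and 1 fell in TFD, with medians of 0.24, -0.11 and 0.00. Ly6a, which encodes Sca-1, fell by 2.61 in DF and by 2.02 in TFD and was at -0.55 in TF with no call. Its TFD call was lost without either TFD library, and without TF replicate 3 its TF value was -1.68 with a call (adjusted p = 0.00014).

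**Figure D4:**
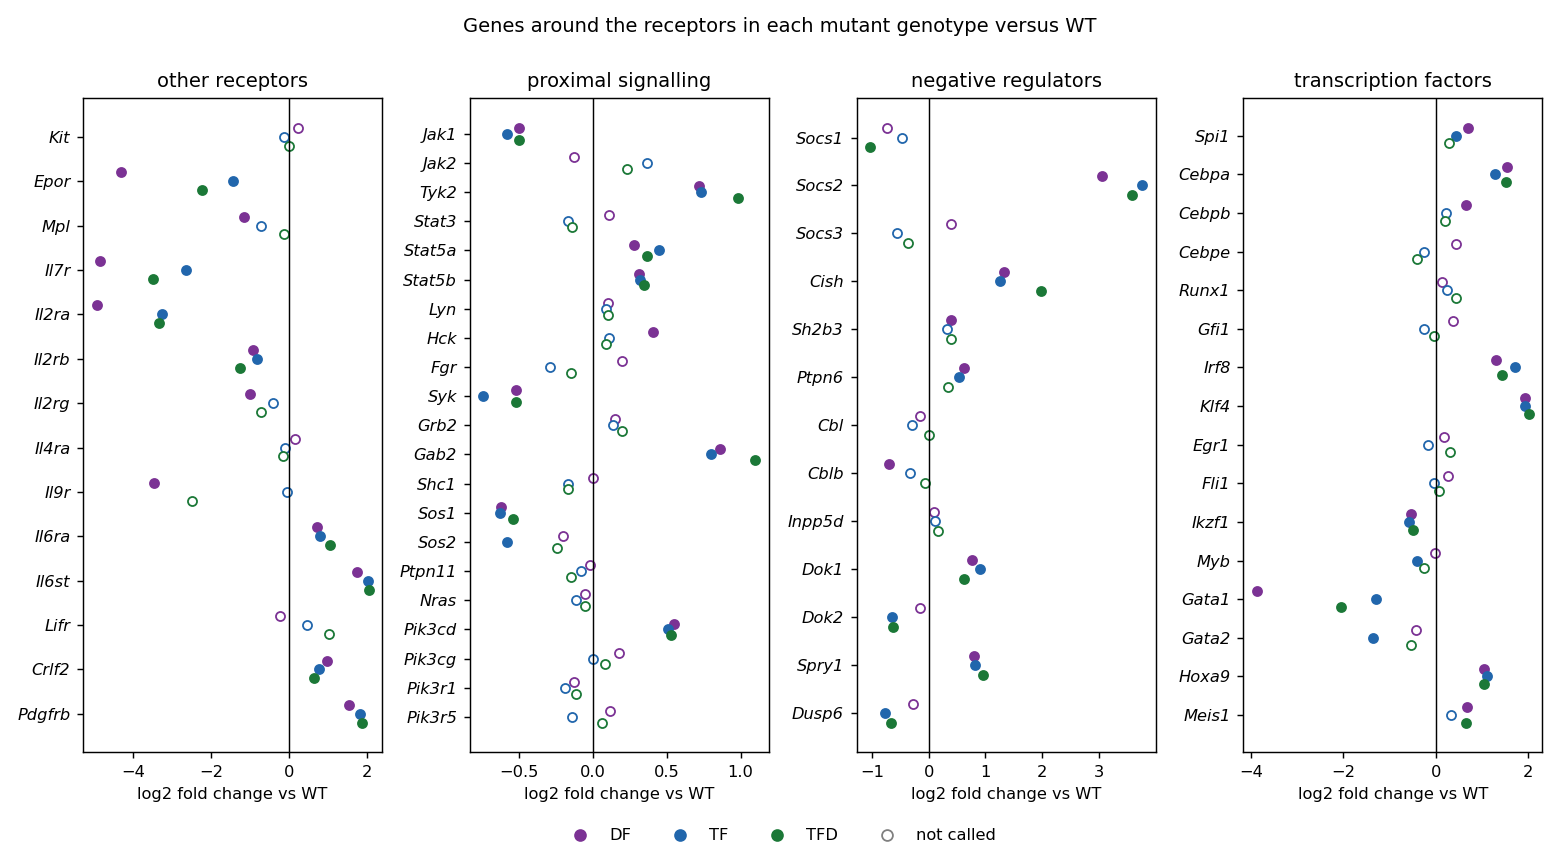
Log2 fold change against WT (horizontal axis, scale differs by panel) of listed receptors, signalling genes, negative regulators and transcription factors (rows) in DF, TF and TFD. Filled points passed the test, and 1 signalling gene is not shown. Socs2 shows gains of 3.06 to 3.76 and Il7r losses of 2.64 to 4.86.

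Inside the cell, calls among kinases and adaptors were of either sign. Of 22 tested proximal signalling genes, 6 rose and 4 fell in DF, 5 and 5 in TF, while TFD gave 5 and 4, with list medians of 0.10, -0.09 and 0.01, against the same all-gene shares of 37.6%, 34.6% and 26.3%. Gab2, an adaptor that couples receptors to PI3 kinase, rose by 0.86, 0.80 and 1.10 in DF, TF and TFD, and Tyk2, a JAK family kinase, by 0.72, 0.73 and 0.98. Stat5a and Stat5b, the factors downstream of these receptors, rose by 0.28 to 0.45 and 0.31 to 0.35, and each of these calls but that of Stat5a in TF was lost when 1 library was left out (WT replicate 1, 2 or 3, DF 1 or 3, TF 1 or 2, TFD 1 or 2). In DF, Stat5a was also not called with DESeq2 (adjusted p = 0.0614), library totals (0.113), RLE factors (0.0548) or only the compared genotypes (0.082), and Stat5b not with library totals (0.0829) or only the compared genotypes (0.0595). In TFD, Stat5a was not called with only the compared genotypes (0.0913), nor was Stat5b (0.102), which was also lost with the replicate block (0.064). With only the libraries of few Xist reads, Stat5a was not called in DF (0.0736) or TFD (0.104), and Stat5b not in DF (0.123) or TFD (0.114). Syk, a kinase of immune receptors, was lower in each genotype at -0.52, -0.74 and -0.52, with the TFD call lost over only the compared genotypes (adjusted p = 0.0504).

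The feedback genes Socs2 and Cish rose in every mutant genotype. Of 13 tested negative regulators, 6 rose and 1 fell in DF, 5 and 2 in TF, while TFD gave 4 and 3, against 37.6%, 34.6% and 26.3% of all genes called in either direction. Socs2, a STAT5-induced brake on cytokine receptors, had 1.16, 1.17 and 1.74 log2 CPM in WT, 4.55, 4.44 and 4.34 in DF, 5.22, 5.14 and 5.06 in TF, while TFD gave 4.71 and 5.21. No mutant library came near WT, and TF lay above DF. Socs2 rose by 3.06 in DF (SE 0.19, edgeR adjusted p = 1.79e-06), by 3.76 in TF (SE 0.19, edgeR adjusted p = 2.76e-07) and by 3.59 in TFD (SE 0.20, edgeR adjusted p = 6.36e-07). DF was below TF by 0.70 (SE 0.15, edgeR adjusted p = 0.02), a call lost without DF replicate 2 or 3 or TF replicate 1. Cish, another STAT5 target, rose by 1.32, 1.26 and 1.98 in DF, TF and TFD.

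Transcription factors that set the myeloid program were described from a list of 16. In DF 7 rose and 2 fell, in TF 5 and 4, and in TFD 5 and 2, with medians of 0.41, 0.09 and 0.24, where 37.6%, 34.6% and 26.3% of all genes were called in either direction. Klf4, a factor of monocyte differentiation, rose by 1.93, 1.93 and 2.01 in DF, TF and TFD, Cebpa, which drives granulocyte and monocyte fate, by 1.53, 1.27 and 1.52, and Irf8, a factor of monocytes and dendritic cells, by 1.31, 1.71 and 1.43. Spi1, which encodes PU.1, rose by 0.70 in DF and by 0.43 in TF and was at 0.28 in TFD with no call (0.48, adjusted p = 0.0315, without WT replicate 1). The TF call was lost with library totals (adjusted p = 0.0526), only the compared genotypes (0.0569) or the libraries of few Xist reads (0.0707), and without WT replicate 2 or 3, DF replicate 1, 2 or 3, or TF replicate 1 or 2. Summed erythroid markers, of 8 genes with Gata1 and Epor among them, ran from 1340 to 1770 CPM in WT and from 290 to 423 in DF. In TF they were 537, 645 and 1420 CPM, and in TFD 633 and 501. The part of erythroid cells in the levels of Gata1 and Epor was not tested. Gata1, the erythroid factor, fell, with -3.87, -1.30 and -2.05. Its TF call was lost without WT replicate 1 or 3 or TF replicate 1 or 2, and its TFD call without TFD replicate 2. Between DF and TF, 6 of the 67 pathway genes differed, 2 higher and 4 lower in DF, against 5.94% of all genes called. That number of 6 ran from 1 to 10 when 1 library was left out, with DF replicates 1 to 3 and TF replicate 2 moving it most.

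Likeness between genes was measured as the root mean square difference of log2 CPM, each gene centred on its mean, over the 11 libraries and 11183 genes. Nearest to Csf1r were Acot11 (0.07), Anxa5 (0.09) and Disc1 (0.09), and among the other receptors Il3ra was nearest to it at 0.22. Nearest to Flt3 were Tmem176a (0.22), Acvr1 (0.23) and Kif9 (0.24), against 0.36 for Csf1r. Il3ra was nearest to Cd68 (0.11), a lysosomal protein of monocytes and macrophages, then St6galnac6 (0.13) and Adap1 (0.14). Csf2ra was nearest to Tap2, Rnf166 and Tfeb (0.08 each), and Csf2rb to Ptpn1 (0.10), Sbno2 (0.10) and Ikbke (0.11). Csf3r was nearest to Cd9 (0.12), Zfp276 (0.12) and Rnf144a (0.13). Csf2rb2 was nearest to Sbf2 (0.19), and Il5ra to Slc39a8 (0.37), the farthest nearest gene of the 8. The points share libraries and genotypes, so these distances are descriptions with no test.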

How the data were processed

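Whole bone marrow RNA, depleted of globin mRNA and made into stranded total RNA libraries, was sequenced. According to the methods and the submitters' processing notes, the authors aligned reads to mm10 with STAR and assigned uniquely mapped reads to refGene genes with featureCounts; strand settings and read length are not given in the sources used here. The deposited table holds raw counts and the authors' log2 CPM values, which a recalculation (TMM factors, prior count 0.25) matched within 5e-09, and the gene length behind RPKM, which was computed here. Genes above 0.5 CPM in more than 3 of 11 libraries were kept, which removed 24 and left 12175. Counts of all 4 genotypes were fitted together in edgeR 4.0.16 (quasi-likelihood F test, R 4.3.3), with 6 pairwise comparisons and Benjamini-Hochberg adjustment over all genes. Library totals were 8274153 to 15900904 reads. On simulated counts over 12175 genes, the test recovered 75 of 100 genes changed by 1 log2 unit in DF versus WT. It recovered 71 in TF versus WT and 69 in TFD versus WT. Of 100 genes changed by 2, it recovered 94 in each comparison. False calls numbered 7, 12 and 10 in DF, TF and TFD. The simulation changed far fewer genes than were called here, so recovery in these data can differ. Alternatives were DESeq2 1.42.0, other scaling factors, no filter, fits of the compared genotypes only, a replicate block, a covariate marking the libraries that hold 10000 or more Xist reads, and leaving out each library. A fit of the libraries under 10000 Xist reads was added after seeing the data. Intervals are at the 95% level. Named genes are the 8 receptors and pathway genes called in at least 1 comparison. The latter are those with the largest changes in each list, and others picked for their role after their values were seen. Flt3l, Csf1 and Kit are named though not called. Also named are defining or extreme cell markers, others of the same lists, and the 3 genes nearest to each receptor. The receptors and lists were chosen with earlier results of these data known. Values of 1 gene of the signalling list, which is part of the list's counts, are not reported here.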

Additional observations from a re-analysis of the deposited data

Results flagged for a closer look

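Csf2rb was picked out because its change from WT differed between 2 mutant genotypes in a test of the difference itself. DF exceeded TF by 0.53 on the log2 scale (SE 0.13, edgeR adjusted p = 0.0292), with mean levels of 8.30 and 7.77 log2 CPM and no overlap of the libraries. The adjusted p ran from 0.00405 to 0.122 over 19 alternatives, and the call was lost in 8 of them. Its near copy Csf2rb2 differed by 0.07 in the same comparison (95% interval -0.49 to 0.64), and of the 50-base windows of Csf2rb 18.4% also occur in Csf2rb2.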

How the results depend on the processing

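Of 912 refits of the 48 receptor results, 843 kept direction and call, 21 lost a call, 7 gained one and 41 changed sign, and every sign change was in a difference that was not called. The cause of these changes was not tested. In DF versus TF the count of receptor genes called, 1, became 0 with library totals, with the term for Xist-high libraries and over libraries with few Xist reads, and ran from 0 to 1 when 1 library was left out. In DF versus TFD the count of 0 became 1 with DESeq2 and ran from 0 to 1. Of the pathway genes, 6 were called in DF versus TF (11 with DESeq2, 1 to 10 when 1 library was left out), 31 in TFD versus WT (20 to 33), and 0 in DF versus TFD (1 with DESeq2, 2 with only the compared genotypes, 2 over libraries with few Xist reads, 0 to 4 when 1 library was left out; leaving out TF replicate 3 or TFD replicate 1 moved it). Correlations between same-numbered libraries ran from -0.325 to 0.277, and 11 of 30 best matches had the same number. With so few libraries per genotype, these values cannot decide whether same-numbered libraries were paired. Under the replicate block the count of pathway genes in DF versus TFD was 1, Csf2ra in TF versus TFD became 0.04, Il5ra in DF versus TFD became -0.16, and calls over all genes fell from 3205 to 2722 in TFD versus WT.

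Sign changes over libraries with few Xist reads were Flt3 0.03 and Csf1r 0.01 in TF versus TFD, Csf2ra -0.08 in DF versus TFD, Csf2rb2 -0.28 in TF and -0.29 in TFD versus WT, 0.38 in DF versus TFD and 0.00 in TF versus TFD, and Csf3r -0.36 in DF versus TFD. With the term for Xist-high libraries, Csf2rb2 was 0.25 and Csf3r -0.15 in DF versus TFD. With library totals, Csf2rb2 was -0.01 in DF versus TF, Csf3r -0.08 and Il5ra -0.07 in DF versus TFD. Il5ra there was -0.01 with DESeq2 and with RLE factors. When 1 library was left out, Flt3 in TF versus TFD ran from -1.03 to 0.11, Csf2ra from -0.07 to 0.34 in DF versus TFD and from -0.19 to 0.20 in TF versus TFD, and Csf2rb2 from -0.23 to 0.36 in TF versus WT, -0.23 to 0.57 in TFD versus WT, -0.18 to 0.41 in DF versus TF, -0.39 to 0.38 in DF versus TFD and -0.46 to 0.32 in TF versus TFD. Csf3r ran from -0.76 to 0.04 in TFD versus WT, -0.35 to 0.48 in DF versus TFD and -0.73 to 0.08 in TF versus TFD, Il3ra from -0.15 to 0.04 in DF versus TF, and Il5ra from -0.41 to 0.30 in DF versus TFD.

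Over all genes, the calls in DF versus TF were 723 (169 without DF replicate 2, 1072 with DESeq2), in DF versus TFD 0 (258 with DESeq2, 384 without TFD replicate 1) and in TF versus TFD 2 (126 with DESeq2). With library totals the share of calls that were higher moved from 55.9% to 42.3% in DF versus WT and from 28.1% to 13.9% in DF versus TF. Of 1824 refits of 96 results of other named genes, 1706 kept direction and call, 83 lost a call, 34 gained one and 1 changed sign (Ear2 in TFD versus WT, which ran from -0.41 to 1.19 when 1 library was left out). Where a fit left TFD with 1 library, that library was assumed to vary like the other genotypes. Il5ra held few reads, 8 to 58 per library.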
